A study of Mus musculus with 53 samples.

Results

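The genes described here are ubiquitin ligases and ligase subunits, FoxO transcription factors that switch some of them on, and myostatin. Some of the ligases are known from muscle wasting. The genes are Trim63, Trim54, Trim55, Fbxo32, Fbxo30, Spop, Mdm2, Foxo1, Foxo3 and Mstn. They were taken by their symbols, a choice made with earlier results of these data known, and are 10 of the 34306 genes of the table. Of the 10, 9 reached 1 RPKM (a read count divided by transcript length and by library size) in at least 2 of the 12 libraries and were tested among 11654 genes. Mstn did not.

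The series compared, in adult mouse hearts, total cytoplasmic RNA (input) with RNA recovered by translating ribosome affinity purification (TRAP). In TRAP a Cre recombinase switches on a tagged ribosomal protein, and the tagged ribosomes are pulled out with the RNA bound to them. In CAG mice the tag is in all cell lineages, and in Tie2 mice it is in endothelial cells, by the descriptions given with the first deposit. The operated mice were male CAG mice whose ascending aorta was narrowed by a tie around it and a needle (band), so that the left ventricle pumps against a higher pressure, or was left untied (sham). The libraries were 2 each of band TRAP, sham TRAP, band input and sham input from CAG hearts. A further 4 libraries came from hearts without surgery, 1 each of Tie2 TRAP, CAG TRAP, Tie2 input and CAG input, from mice whose sex was not given. A mixed 129/C57BL background was labelled for the first deposit alone. The libraries were taken as those of the later deposit, 24 of the 53 samples of the series, whose titles end in l1 or l2 with no meaning given. RNA was pooled, and no label ties the libraries of a group to separate mice. A p-value here therefore measures the spread between libraries alone, and this spread may be technical.

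Ubiquitin ligases choose the proteins that are tagged with ubiquitin and sent to the proteasome. In striated muscle the RING-finger ligases of the MuRF family act on sarcomere proteins, and Fbxo32 (atrogin-1) and Fbxo30 (MUSA1) are the substrate-binding F-box subunits of cullin ligases. FoxO factors induce Trim63 and Fbxo32 when Akt, the kinase that keeps FoxO out of the nucleus, is inactive. Myostatin is a secreted inhibitor of muscle growth made mainly in skeletal muscle.

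Of the marker lists, that of cardiomyocytes had the largest sum in every library, though by a smaller margin in Tie2 TRAP. The 15 cardiomyocyte markers summed to 89908 to 95932 RPKM in the 4 operated TRAP libraries and to 75358 to 79844 RPKM in the 4 operated inputs. In the Tie2 heart they summed to 4666 RPKM in TRAP and 96478 RPKM in input. No marker of that list was at 0 in Tie2 TRAP. The 14 endothelial markers summed to 3899 RPKM in Tie2 TRAP and 346 RPKM in Tie2 input, which matches the label of that line. The 8 macrophage and leukocyte markers also summed to more in Tie2 TRAP, 1900 RPKM against 209 RPKM in Tie2 input. The 6 atrial markers summed to 862 RPKM in Tie2 TRAP and 7459 to 11877 RPKM in the other 3 unoperated libraries, against 164 to 594 RPKM in the 8 operated ones. Unoperated and operated hearts were therefore not compared. Recovered reads ran from 26568988 to 94878619 per library.

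TRAP RNA held less Spop, Foxo1, Foxo3, Trim63 and Fbxo32 than input RNA. These 5 of the 9 tested genes were called lower after banding, where 26.0% of all genes tested were called lower and 42.6% in either direction, and again after sham surgery, where 24.5% were called lower and 39.6% in either direction. Spop was farthest below its input level, at 16.4% to 19.5% of it in operated hearts. Banding called 0 of the 9 genes in TRAP RNA, where 3.77% of all genes were called (2.21% higher, 1.56% lower), and 0 of the 9 in input RNA, where 4.08% were (2.44% higher, 1.65% lower). The lowest adjusted p of banding was that of Foxo3, at 0.0750 by limma, with lower values in banded hearts. In Tie2 TRAP RNA, with 1 library on each side, the MuRF genes were at a small fraction of their input level. Foxo1 was there at 2.24 times its input level, with 3763 of the 11654 genes rising more.

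By level per transcript length, the order was led in all 10 libraries other than the Tie2 pair by Trim54, then Trim63, then Spop. In CAG band TRAP libraries Trim54 averaged 211 ± 27.6 RPKM, Trim63 75.1 ± 1.20 RPKM and Spop 13.2 ± 0.0561 RPKM (SD, n = 2). In CAG sham TRAP the averages were 179.7 ± 6.32 RPKM for Trim54, 73.2 ± 0.800 RPKM for Trim63 and 14.3 ± 1.29 RPKM for Spop (SD, n = 2). The libraries of each of these genes lay clear of those of the next gene in all 4 operated groups. Below them, Trim55, Mdm2, Fbxo32 and Foxo3 had group means between 3.86 and 9.87 RPKM. In sham input the libraries of Trim55, Foxo3, Fbxo32 and Mdm2 overlapped from each gene to the next, so neighbours in that order are not distinguished. Both Trim55 libraries lay above those of Fbxo32 and Mdm2, and both Foxo3 libraries above those of Mdm2. Foxo1 averaged 2.02 to 4.70 RPKM and Fbxo30 0.853 to 1.57 RPKM in the operated groups. In Tie2 TRAP the order was different, with Spop first at 24.9 RPKM, then Trim54 at 18.1 RPKM and Mdm2 at 9.88 RPKM.

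**Figure D1:**
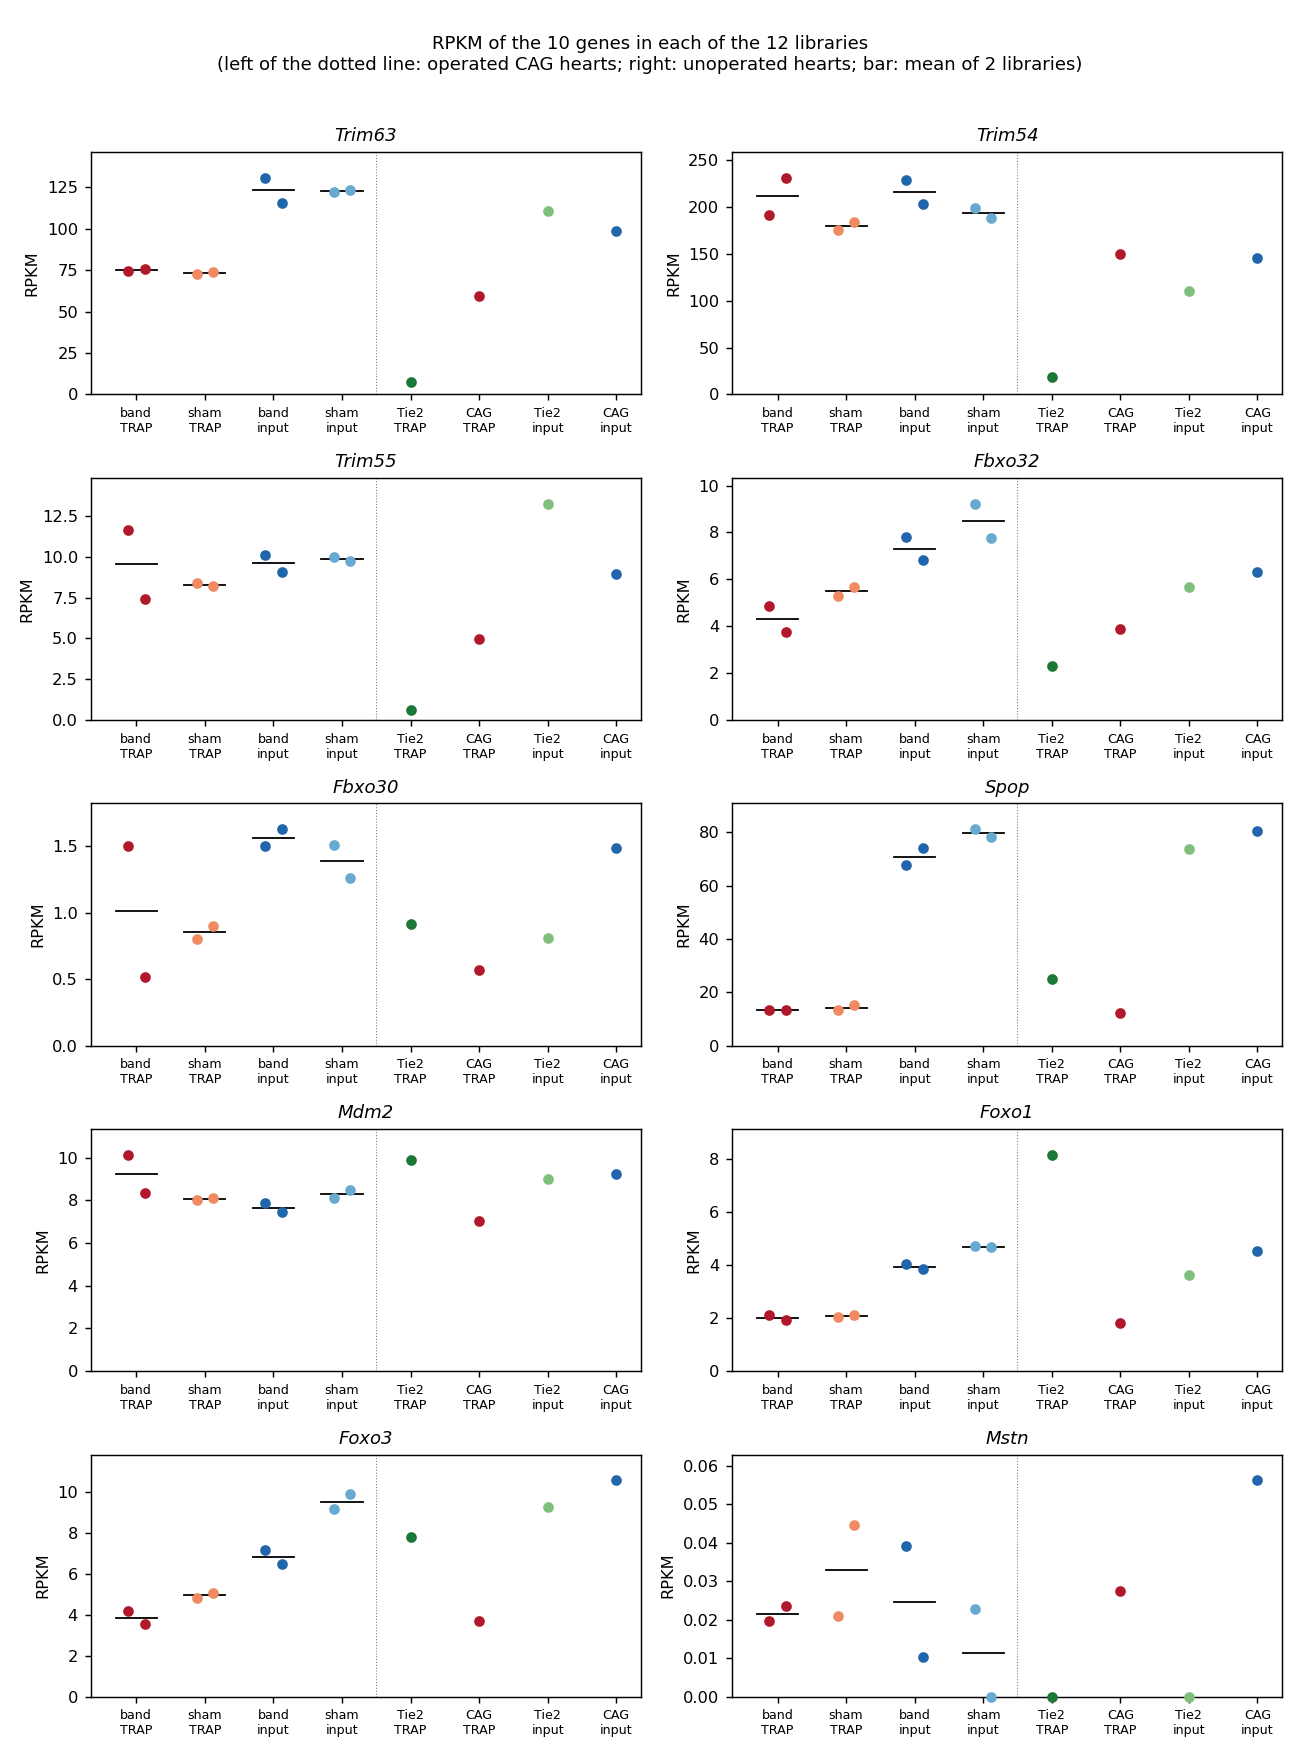
Level of each of the 10 genes in RPKM (vertical axes, each from 0) in each library, by group (horizontal axes). Points are libraries, bars are means of 2 libraries, and the dotted line separates operated CAG hearts from unoperated Tie2 and CAG hearts. Spop lies at 12.3 to 15.2 RPKM in the 5 CAG TRAP libraries and 67.7 to 81.1 RPKM in the 6 input libraries.

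Trim63 encodes MuRF1, the family member most used as a marker of muscle atrophy, whose substrates include myosin heavy chain and cardiac troponin I. It had 74.2 and 75.9 RPKM in band TRAP and 72.7 and 73.8 RPKM in sham TRAP, against 131 and 116 RPKM in band input and 122 and 124 RPKM in sham input. The 4 TRAP libraries lay close together, and all were below the 4 input libraries. TRAP RNA held less Trim63 than input RNA after banding, by -0.70 ± 0.08 on the log2(RPKM + 1) scale (SE; limma adjusted p = 0.00116), and after sham surgery, by -0.74 ± 0.08 (SE; limma adjusted p = 0.00131). Between band and sham hearts it differed by 0.04 ± 0.08 in TRAP RNA and by 0.00 ± 0.08 in input RNA, which is less than the standard error in both.

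The promoter of Trim63 is shown because it holds the sequence that FoxO factors bind in atrophying muscle. It is taken from RefSeq, build GRCm38.p6, at chr4:134314870-134315169 on the plus strand, 250 bases before to 50 bases after the gene start. The capitals mark TGTTTAC, which is the FoxO motif GTAAACA read on the other strand, with its first base 194 bases before the start.

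Trim63: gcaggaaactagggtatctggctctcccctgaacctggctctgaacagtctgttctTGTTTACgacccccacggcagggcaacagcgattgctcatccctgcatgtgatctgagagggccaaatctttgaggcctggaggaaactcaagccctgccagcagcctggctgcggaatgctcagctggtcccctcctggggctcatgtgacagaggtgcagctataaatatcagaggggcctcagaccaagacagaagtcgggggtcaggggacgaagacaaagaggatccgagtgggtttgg

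The letters TGTTCT, a core of glucocorticoid receptor elements, stand directly before the capitals. Of 32851 RefSeq promoters of the same length, 3.65% hold GTAAACA on either strand and 19.0% hold TGTTCT. Of the 8 genes with a promoter entry, Trim63 and Mdm2 held GTAAACA, and Trim54, Fbxo30, Spop, Foxo1, Foxo3 and Mstn did not. Trim55 and Fbxo32 had no entry. A match describes the letters only, and no binding was measured here.

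Trim54 encodes MuRF3, which binds microtubules and the Z-disc. It had 192 and 231 RPKM in band TRAP and 175 and 184 RPKM in sham TRAP, against 229 and 203 RPKM in band input and 199 and 188 RPKM in sham input. The band TRAP and band input libraries overlapped, and both sham TRAP libraries lay below both sham inputs. TRAP minus input was -0.04 ± 0.11 after banding (log2 scale, SE; limma adjusted p = 0.821) and -0.11 ± 0.11 after sham surgery (limma adjusted p = 0.481). With quantile normalization the sham difference was -0.37 with a limma adjusted p of 0.0363. Band minus sham was 0.23 ± 0.11 in TRAP RNA (limma adjusted p = 0.329) and 0.15 ± 0.11 in input RNA (limma adjusted p = 0.531). Without band TRAP library 1 the TRAP difference was 0.36, with a limma adjusted p of 0.0443. A long noncoding gene, Gm15469, overlaps Trim54 in the GRCm38.p6 annotation, and reads without strand cannot be divided between them.

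Trim55, which encodes MuRF2, was the lowest of the family, as it was in every library. It had 11.7 and 7.44 RPKM in band TRAP and 8.39 and 8.19 RPKM in sham TRAP, against 10.1 and 9.06 RPKM in band input and 9.96 and 9.77 RPKM in sham input. The band TRAP pair spanned the values of all other operated libraries. No operated comparison of Trim55 was called over the 12 libraries, and its sign depended on the band TRAP pair. Band minus sham in TRAP RNA was 0.15 ± 0.18 (log2 scale, SE; limma adjusted p = 0.709), 0.45 without band TRAP library 2 (limma adjusted p = 0.0222) and -0.14 without band TRAP library 1 (limma adjusted p = 0.381). Against input, Trim55 in TRAP RNA differed by -0.03 after banding and -0.23 after sham surgery, neither called. Without band TRAP library 1 these were -0.33 (limma adjusted p = 0.0243) and -0.23 (0.0428), and without band TRAP library 2 the sham difference also passed (0.0424).

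The make-up of the family differed between fractions. Trim54 took 69.1% and 73.5% of the summed RPKM of the 3 MuRF genes in band TRAP and 68.4% and 69.2% in sham TRAP, against 62.0% and 61.9% in band input and 60.2% and 58.5% in sham input. Trim63 took 26.7% and 24.2% in band TRAP and 28.3% and 27.7% in sham TRAP, against 35.3% and 35.3% in band input and 36.8% and 38.4% in sham input. Every operated TRAP library thus had a higher Trim54 share and a lower Trim63 share than every operated input. The unoperated hearts had Trim54 shares of 68.4% in Tie2 TRAP and 69.8% in CAG TRAP, against 47.0% in Tie2 input and 57.5% in CAG input. The inputs of the Tie2 and CAG hearts, which hold RNA of all cells, differed from each other by more than did their TRAP libraries. Trim55 took 2.32% to 5.68% over the 12 libraries.

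**Figure D2:**
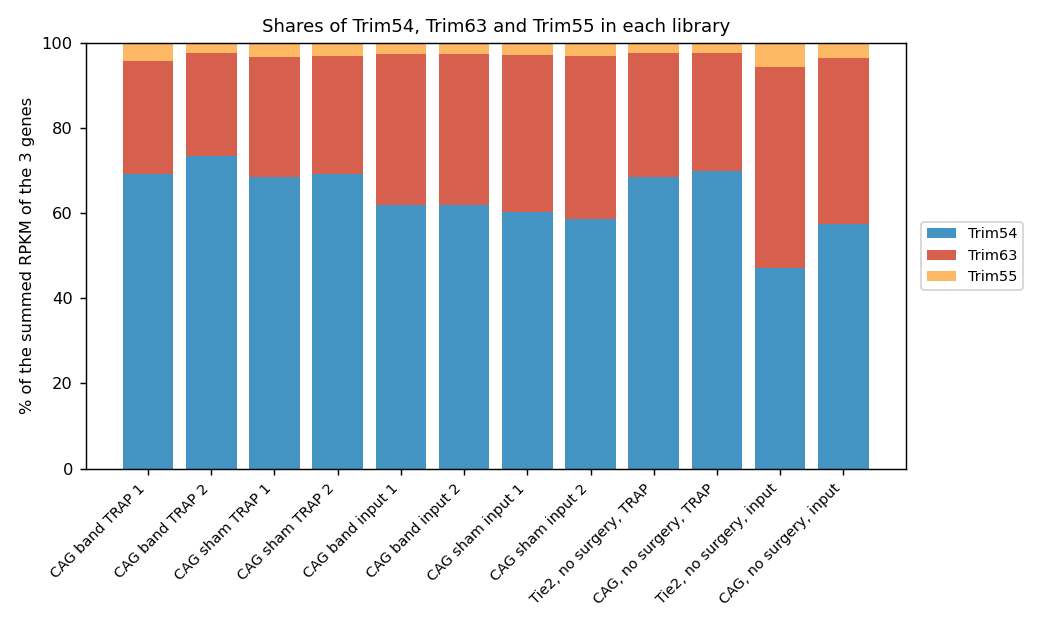
Share of Trim54, Trim63 and Trim55 in their summed RPKM (vertical axis, percent) in each of the 12 libraries (horizontal axis). Trim54 takes 68.4% to 73.5% in the 6 TRAP libraries and 47.0% to 62.0% in the 6 inputs.

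Fbxo32, the atrogin-1 gene, had 4.85 and 3.75 RPKM in band TRAP and 5.29 and 5.68 RPKM in sham TRAP, against 7.82 and 6.81 RPKM in band input and 9.22 and 7.77 RPKM in sham input. All 4 TRAP libraries were below all 4 inputs. The difference of TRAP from input was -0.65 ± 0.14 after banding (log2 scale, SE; limma adjusted p = 0.00878) and -0.55 ± 0.14 after sham surgery (limma adjusted p = 0.0185). After sham surgery the call was lost on leaving out sham input library 1 (limma adjusted p = 0.124), without sham TRAP library 1 (0.100), without sham TRAP library 2 (0.0680) and with no filter on low values (0.0592), and the band call without band input library 1 (0.0639). Both band libraries lay below both sham libraries in TRAP RNA, and the pairs overlapped in input RNA. The band minus sham difference was -0.30 ± 0.14 in TRAP RNA (limma adjusted p = 0.287) and -0.19 ± 0.14 in input RNA (limma adjusted p = 0.519). A long noncoding gene, Gm36112, overlaps Fbxo32 in the annotation.

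The ratio of Trim63 to Fbxo32, the pair most often measured together in atrophy, was 15.3 and 20.2 in band TRAP and 13.7 and 13.0 in sham TRAP, against 16.7 and 17.0 in band input and 13.2 and 15.9 in sham input. Band libraries were above sham libraries in both fractions. This ratio was not tested.

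Fbxo30, the MUSA1 gene, was near the limit of the filter. It had 1.51 and 0.519 RPKM in band TRAP and 0.804 and 0.903 RPKM in sham TRAP, against 1.51 and 1.63 RPKM in band input and 1.51 and 1.26 RPKM in sham input. The band TRAP pair again spread widely, and its first library reached the level of the inputs. TRAP minus input was -0.40 ± 0.22 after banding (log2 scale, SE; limma adjusted p = 0.178) and -0.36 ± 0.22 after sham surgery (limma adjusted p = 0.217). Without band TRAP library 1 the band difference was -0.76 (limma adjusted p = 0.00217), and leaving out either band TRAP library also brought the sham difference to adjusted p values of 0.0186 and 0.0181, with the difference itself at -0.36. With the length trend removed the differences were smaller, at -0.12 after banding (limma adjusted p = 0.633) and -0.07 after sham surgery (0.806). For a gene this low the size also depends on the pseudocount, and was -0.74 and -0.64 with 0.1 RPKM and -0.13 and -0.13 with 5 RPKM.

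Spop encodes the adaptor that brings substrates to the cullin 3 ligase through its MATH and BTB domains. It had 13.2 and 13.3 RPKM in band TRAP and 13.3 and 15.2 RPKM in sham TRAP, against 67.7 and 74.1 RPKM in band input and 81.1 and 78.1 RPKM in sham input. The fractions were far apart, and TRAP libraries held 16.4% to 19.5% of the Spop of the input with the same number. On the log2 scale, TRAP minus input was -2.33 ± 0.09 after banding (SE; limma adjusted p = 2.02e-05) and -2.40 ± 0.09 after sham surgery (limma adjusted p = 2.40e-05). This was 5.35-fold lower in RPKM after banding, with 91 of the 11654 genes lower still, and 5.58-fold lower after sham surgery, with 70 genes lower still. The unoperated CAG heart had 12.3 RPKM in TRAP and 80.6 RPKM in input, a ratio of 0.152 (95% counting interval 0.146 to 0.159). With banding Spop differed by -0.10 ± 0.09 in TRAP RNA (limma adjusted p = 0.642) and -0.17 ± 0.09 in input RNA (limma adjusted p = 0.392).

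The genes whose pattern across libraries was nearest to that of Spop, by Pearson's r of log2(RPKM + 1) over the 12 libraries, were the predicted gene Gm13341 (0.993), the mitochondrial ribosomal RNA mt-Rnr1 (0.992) and Ybx1, a cold-shock RNA-binding protein (0.991). Without Tie2 TRAP, mt-Rnr1 was still at 0.993 over 11 libraries. Mitochondrially encoded RNA made up 0.0587% to 0.293% of reads in the operated TRAP libraries and 13.7% to 15.9% in the operated inputs. For Trim63 the nearest were Trim72 (0.993), a muscle membrane-repair ligase, and Des (0.992), the muscle intermediate filament protein. Without Tie2 TRAP the 3 nearest to Trim63 were instead Casz1 (0.995), Plin3 (0.991) and Amotl1 (0.990), so the muscle neighbours rested on that library. The nearest to Foxo1 was Slc35e1 (0.987), and Gm8113 (0.995) without Tie2 TRAP. For Foxo3 it was Lmtk2 (0.985), which stayed at 0.984 without it. Within the MuRF family, Trim63 and Trim55 were at 0.949 and Trim63 and Trim54 at 0.904 over the 12 libraries, but at 0.627 and 0.119 without Tie2 TRAP. Over those 11 libraries Trim63 was nearer to Spop (0.937) and Foxo1 (0.931). These libraries share fractions, so each r describes them and carries no test.

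Mdm2 encodes the ligase of p53, which also acts on FoxO proteins. It had 10.1 and 8.32 RPKM in band TRAP and 7.99 and 8.09 RPKM in sham TRAP, against 7.85 and 7.46 RPKM in band input and 8.12 and 8.47 RPKM in sham input. Both band TRAP libraries were above both sham TRAP and both band input libraries, and the sham TRAP pair lay just below the sham inputs. TRAP minus input was 0.23 ± 0.10 after banding (log2 scale, SE; limma adjusted p = 0.109) and -0.04 ± 0.10 after sham surgery (limma adjusted p = 0.780). The band difference passed the threshold with quantile normalization (0.32, limma adjusted p = 0.0236), with the length trend removed (0.36, 0.0184) and without band TRAP library 2 (0.36, 0.0123). In the first 2 of these settings the sham difference turned to 0.03 and 0.08. Band minus sham was 0.17 ± 0.10 in TRAP RNA and -0.10 ± 0.10 in input RNA (limma adjusted p = 0.427 and 0.676).

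The promoter of Mdm2, the other one with the FoxO motif, is at chr10:117710709-117711008 on the minus strand (RefSeq, GRCm38.p6). The capitals mark GTAAACA, read in the direction of the gene, with its first base 153 bases before the start.

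Mdm2: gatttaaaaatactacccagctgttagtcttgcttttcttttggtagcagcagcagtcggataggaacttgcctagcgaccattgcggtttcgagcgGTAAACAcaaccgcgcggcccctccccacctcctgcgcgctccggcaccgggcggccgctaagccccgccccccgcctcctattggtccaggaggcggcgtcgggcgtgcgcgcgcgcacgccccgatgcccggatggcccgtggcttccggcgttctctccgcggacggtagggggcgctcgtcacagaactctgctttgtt

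Foxo1 encodes the FoxO factor best known for its part in vessel growth and in metabolism. It had 2.12 and 1.92 RPKM in band TRAP and 2.04 and 2.14 RPKM in sham TRAP, against 4.03 and 3.84 RPKM in band input and 4.71 and 4.69 RPKM in sham input. All TRAP libraries were below all inputs, and both band inputs were below both sham inputs. TRAP minus input was -0.71 ± 0.08 after banding (log2 scale, SE; limma adjusted p = 0.00115) and -0.88 ± 0.08 after sham surgery (limma adjusted p = 0.000775). With each library's trend over transcript length removed these became -0.40 and -0.55, with limma adjusted p values of 0.00906 and 0.00394. Band minus sham was -0.03 ± 0.08 in TRAP RNA (limma adjusted p = 0.879) and -0.21 ± 0.08 in input RNA (unadjusted p = 0.0440, limma adjusted p = 0.246).

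Foxo3, the factor shown to drive Fbxo32 in atrophy, had 4.19 and 3.53 RPKM in band TRAP and 4.83 and 5.06 RPKM in sham TRAP, against 7.18 and 6.48 RPKM in band input and 9.14 and 9.88 RPKM in sham input. The 4 pairs did not overlap: band was below sham in both fractions and TRAP below input in both surgeries. Foxo3 in TRAP minus input was -0.69 ± 0.10 after banding (log2 scale, SE; limma adjusted p = 0.00254) and -0.82 ± 0.10 after sham surgery (limma adjusted p = 0.00175). Removing the length trend brought these to -0.31 (limma adjusted p = 0.0296) and -0.41 (0.0139). At 6848 bases the Foxo3 transcript is the longest of the 10, followed by Foxo1 at 5552 bases and Fbxo30 at 5060 bases. A long noncoding gene, Gm38485, overlaps Foxo3 in the annotation.

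Band minus sham for Foxo3 was -0.29 ± 0.10 in TRAP RNA (log2 scale, SE; unadjusted p = 0.0243, limma adjusted p = 0.176) and -0.43 ± 0.10 in input RNA (unadjusted p = 0.00441, limma adjusted p = 0.0750). Neither passed the threshold. The input difference passed with quantile normalization (limma adjusted p = 0.0270). It also passed without band TRAP library 1 and without band TRAP library 2. Neither library enters the input difference, which stayed at -0.43. The TRAP difference passed without band TRAP library 1, at -0.39. In 17 of 20 alternatives the input difference did not pass, and in 19 of 20 the TRAP difference did not. The ratio of Foxo3 to Foxo1 was 1.98 and 1.84 in band TRAP and 2.37 and 2.37 in sham TRAP, against 1.78 and 1.69 in band input and 1.94 and 2.10 in sham input. In each fraction the band ratios were below the sham ratios.

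Mstn was at or near 0 throughout, between 0 and 0.0561 RPKM, or 0 to 7 reads per library. It was listed at 0 in sham input library 2 and in both Tie2 libraries. A count of 0 allows up to 3 reads, which is 0.0118 to 0.0421 RPKM in these libraries, and 9 of the 12 values rested on 3 reads or fewer. Expression of Mstn was thus not detectable above this limit in those libraries. These limits and the intervals cover counting error only. Of the 15 skeletal muscle markers in the table, 3 passed the filter on low values, and the list summed to 15.5 to 60.5 RPKM, with Myf6 at 0 in all 12 libraries.

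Over the 9 tested genes, TRAP was called higher than input for 0 after banding, where 16.6% of all genes were called higher, and for 0 after sham surgery, where 15.1% were. The median difference of the 9 was -0.65 after banding and -0.55 after sham surgery, against -0.10 and -0.09 over all genes tested. The calls over all genes split into 1938 higher and 3026 lower after banding, and into 1763 higher and 2852 lower after sham surgery. Quantile normalization turned these into 2544 and 1955 after banding and 2053 and 1851 after sham surgery, and removing the length trend into 2064 and 2039, and 1567 and 1704. By limma voom on the recovered reads 5 were called in each as well. The calls of Spop, Foxo1, Foxo3 and Trim63 held under all alternatives run. TRAP and input libraries did not overlap for 6 of the 9 after banding and 9 of the 9 after sham surgery, against 69.1% and 79.2% of all genes.

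Other RNA moved between the fractions as well. In TRAP RNA, how much a cell type contributes and how much of its RNA is ribosome-bound cannot be told apart in these bulk libraries. Over all genes 26.0% were called lower in TRAP after banding and 24.5% after sham surgery. Of the macrophage and leukocyte markers, 7 of 7 tested were called lower in TRAP after banding and 6 of 7 after sham surgery. The list summed to 148 to 158 RPKM in operated TRAP and 256 to 340 RPKM in operated input. Of the 9 fibroblast markers, 8 and 7 were called lower after banding and sham surgery, with sums of 92.1 to 148 RPKM in TRAP and 252 to 287 RPKM in input. Of the 8 smooth muscle and pericyte markers, 5 were called lower after each surgery. The erythroid list summed to 61.7 to 206 RPKM in TRAP and 1535 to 2555 RPKM in input. Endothelial sums overlapped, at 226 to 272 RPKM in TRAP and 228 to 254 RPKM in input. None of these markers was at 0 in all 8 operated libraries, and their part in the differences of the ligases was not tested. Against the cardiomyocyte gene Tnnt2, Trim63 stood at 0.366% and 0.325% in band TRAP and 0.358% and 0.390% in sham TRAP, against 0.734% and 0.654% in band input and 0.732% and 0.751% in sham input. This share depends on the marker taken as reference, and only Tnnt2 was used. Of the 15 cardiomyocyte markers, 5 were called higher and 5 lower in TRAP after banding, and 3 higher and 5 lower after sham surgery. Over all genes 16.6% and 15.1% were called higher. Myh6 of that list had 1796 and 1721 RPKM in sham TRAP against 3623 and 3427 RPKM in sham input.

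**Figure D3:**
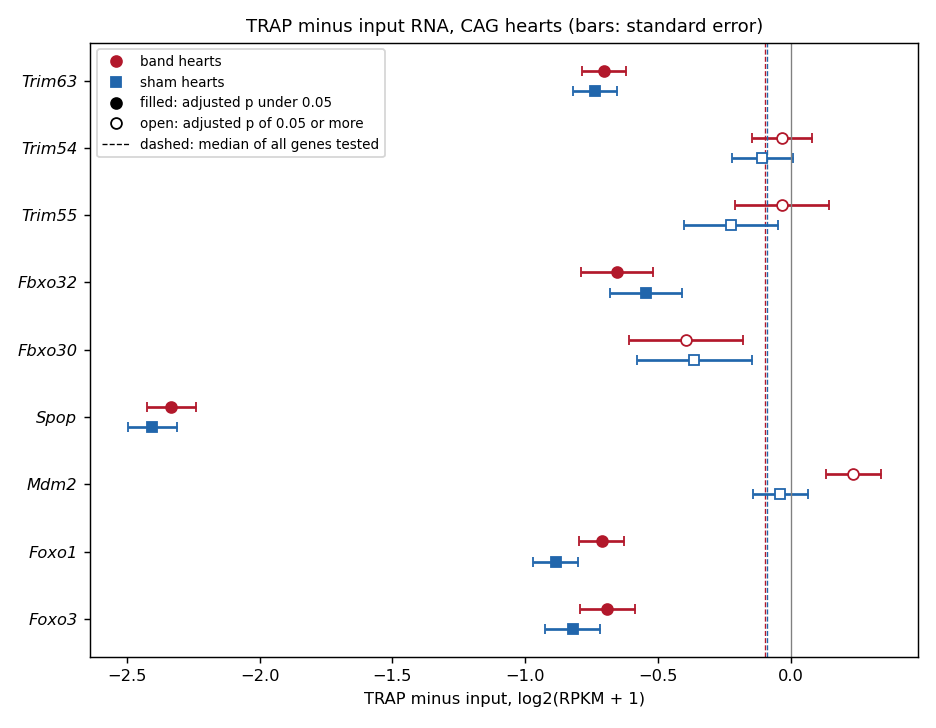
TRAP minus input on the log2(RPKM + 1) scale (horizontal axis) for the 9 tested genes, with band hearts above sham hearts for each gene. Bars are standard errors of the fit, filled symbols have a limma adjusted p under 0.05 and dashed lines are medians of all genes tested. Spop lies at -2.33 and -2.40, and Trim63, Fbxo32, Foxo1 and Foxo3 lie between -0.88 and -0.55.

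For the comparison of banding with sham surgery, where 0 of the 9 genes were called, at an unadjusted p under 0.05 limma counted 1 of the 9 in TRAP RNA, Foxo3, and 2 in input RNA, Foxo3 and Foxo1. Limma voom called 0 in each. Band and sham libraries did not overlap for 6 of the 9 in TRAP RNA and 5 of the 9 in input RNA, against 44.3% and 59.7% of all genes. The median of the 9 was 0.04 in TRAP RNA and -0.10 in input RNA, against -0.01 in each over all genes. Beside this, 1 and 3 of the 7 macrophage and leukocyte markers were called higher after banding in TRAP and input RNA, and 3 and 1 of the 5 erythroid markers lower. Over all genes 2.21% and 2.44% were called higher, and 1.56% and 1.65% lower. The part of these markers in the values of the 9 genes was not tested. Between band and sham hearts, fewer cells of a type and less RNA per cell cannot be told apart in these bulk libraries. Each operated library enters both a TRAP against input and a band against sham comparison, so these comparisons share libraries.

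**Figure D4:**
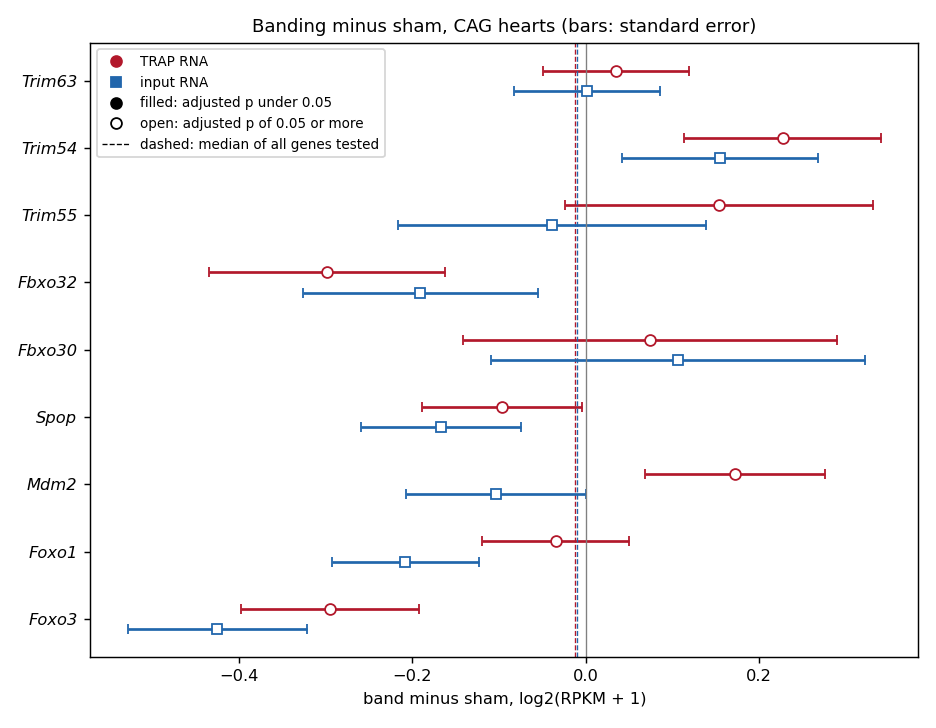
Band minus sham on the log2(RPKM + 1) scale (horizontal axis) for the 9 tested genes, with TRAP RNA above input RNA for each gene. Bars are standard errors, open symbols have a limma adjusted p of 0.05 or more, and dashed lines are medians of all genes. No symbol is filled. Foxo3 lies farthest from 0 in input RNA, at -0.43, and in TRAP RNA Fbxo32 lies at -0.30 and Foxo3 at -0.29.

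Whether banding changed the ratio of TRAP to input was tested as an interaction, which was called for 0 of the 9 genes and for 0% of the 11654 genes by limma, with 557 genes at an unadjusted p under 0.05. None of the 9 was among those, and limma voom called 0 of the 9. The lowest unadjusted p of the 9 was that of Mdm2, 0.103, with a change of 0.27 ± 0.15 on the log2 scale (SE).

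Tie2 TRAP reads the ribosome-bound RNA of cells with Tie2-driven Cre, and was compared with 1 library on each side and hence with no test. The Tie2 TRAP and CAG TRAP libraries each enter 2 of these comparisons. Intervals are 95% counting intervals of the RPKM ratio. Trim63 had 7.72 RPKM in Tie2 TRAP and 59.6 RPKM in CAG TRAP, against 110.4 RPKM in Tie2 input and 98.3 RPKM in CAG input. Its ratio of TRAP to input was 0.0699 (0.0641 to 0.0761) in the Tie2 heart and 0.606 (0.586 to 0.627) in the CAG heart. Trim54 had 18.1 RPKM in Tie2 TRAP and 149 RPKM in CAG TRAP, against 109.8 RPKM in Tie2 input and 145 RPKM in CAG input, with ratios of 0.165 (0.154 to 0.176) in the Tie2 heart and 1.03 (0.998 to 1.06) in the CAG heart. Trim55 had 0.621 RPKM in Tie2 TRAP and 4.96 RPKM in CAG TRAP, against 13.3 RPKM in Tie2 input and 8.93 RPKM in CAG input. Its ratio of 0.0469 (0.0337 to 0.0635) in the Tie2 heart rested on 43 reads in TRAP and 1191 in input.

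The MuRF genes were thus within the range of the cardiomyocyte markers, whose Tie2 TRAP level was 2.20% to 23.6% of Tie2 input with a median of 5.34%. As a share of Tnnt2, the only reference used, Trim63 was 0.565% in Tie2 TRAP and 0.383% in CAG TRAP, against 0.608% in Tie2 input and 0.703% in CAG input. The ligases outside the MuRF family lay above that range. Fbxo32 had 2.32 RPKM in Tie2 TRAP and 3.89 RPKM in CAG TRAP, against 5.67 RPKM in Tie2 input and 6.31 RPKM in CAG input, and its Tie2 ratio was 0.408 (0.352 to 0.472). Spop had 24.9 RPKM in Tie2 TRAP and 12.3 RPKM in CAG TRAP, against 73.7 RPKM in Tie2 input and 80.6 RPKM in CAG input. Its TRAP to input ratio was 0.337 (0.324 to 0.351) in the Tie2 heart and 0.152 in the CAG heart, below 1 in both.

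Foxo1 went the other way. It had 8.16 RPKM in Tie2 TRAP and 1.82 RPKM in CAG TRAP, against 3.64 RPKM in Tie2 input and 4.53 RPKM in CAG input. Its TRAP to input ratio was 2.24 (2.07 to 2.42) in the Tie2 heart and 0.402 (0.364 to 0.445) in the CAG heart. Relative to CAG TRAP, Tie2 TRAP held 4.48 times as much (4.14 to 4.85). The log2 difference of Foxo1 stayed above 0 under the 5 alternatives, at 0.43 to 1.14 against Tie2 input and 0.65 to 2.10 against CAG TRAP, while the median over all genes was 0.48 and 0.85. Foxo3 had 7.77 RPKM in Tie2 TRAP and 3.71 RPKM in CAG TRAP, against 9.27 RPKM in Tie2 input and 10.6 RPKM in CAG input. The difference of Foxo3 between Tie2 TRAP and CAG TRAP was 0.90 on the log2 scale and ran from -0.12 to 1.05 over the alternatives, so its direction depended on the scaling. The Foxo3 to Foxo1 ratio was 0.953 in Tie2 TRAP and 2.04 in CAG TRAP, against 2.54 in Tie2 input and 2.33 in CAG input.

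Mdm2 had 9.88 RPKM in Tie2 TRAP and 7.04 RPKM in CAG TRAP, against 8.99 RPKM in Tie2 input and 9.23 RPKM in CAG input. Fbxo30 had 0.919 RPKM in Tie2 TRAP and 0.571 RPKM in CAG TRAP, against 0.810 RPKM in Tie2 input and 1.49 RPKM in CAG input. Both differed from Tie2 input by 0.12 and 0.08 on the log2 scale, with signs that turned under the alternatives (-0.46 to 0.13 for Mdm2, -0.44 to 0.16 for Fbxo30).

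By a log2 difference past 1, Tie2 TRAP held more than Tie2 input for 0 of the 9 genes, against 31.5% of all genes, and less for 5 of the 9, against 13.1% of all genes. The 5 were Trim63, Trim54, Trim55, Spop and, at -1.01, Fbxo32. Against CAG TRAP, Tie2 TRAP held more for 1 of the 9, Foxo1, against 44.4% of all genes, and less for the 3 MuRF genes, against 11.3% of all genes. CAG TRAP held less than CAG input for 2 of the 9, Spop and Foxo3, against 7.53% of all genes, and more for 0 of the 9, against 0.961%. Macrophage and leukocyte markers stood at a median of 949% of input in Tie2 TRAP, beside 1153% for endothelial and 165% for fibroblast markers. The part of each cell type in these values was not tested. Mitochondrial RNA was 3.17% of reads in Tie2 input and 14.3% in CAG input, so the inputs themselves differed.

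**Figure D5:**
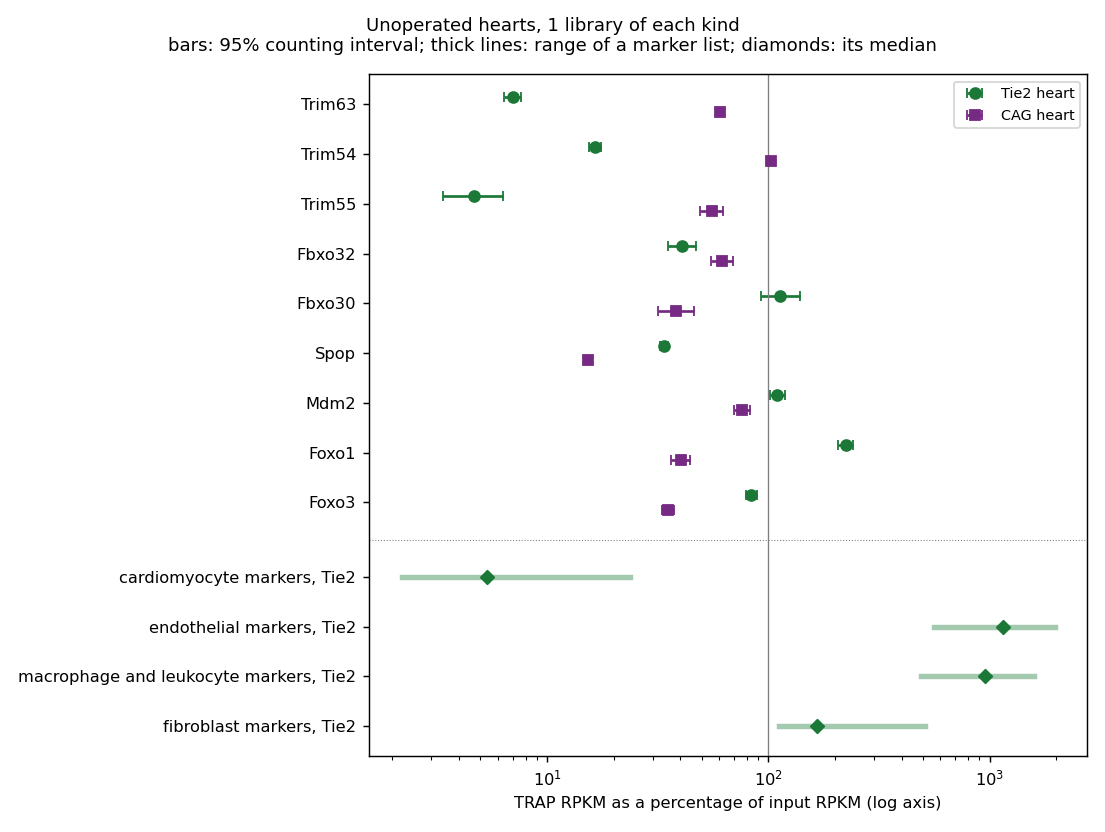
TRAP RPKM as a percentage of input RPKM (horizontal log axis) in unoperated hearts, with the Tie2 heart above the CAG heart for each gene and 95% counting intervals. Thick lines and diamonds below give the range and median of cell type marker lists in the Tie2 heart. Trim63, Trim54 and Trim55 lie at 6.99%, 16.5% and 4.69% in the Tie2 heart, and Foxo1 at 224%.

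Around these genes, the other 33 tested ligases with a known role in muscle included 1 called higher after banding in each fraction, Kbtbd5, a muscle kelch adaptor of cullin 3. It had 7.12 and 8.46 RPKM in band TRAP and 4.41 and 4.88 RPKM in sham TRAP, against 10.7 and 9.35 RPKM in band input and 5.90 and 4.77 RPKM in sham input. Its band minus sham differences were 0.64 in TRAP RNA (limma adjusted p = 0.0499) and 0.80 in input RNA (limma adjusted p = 0.0222), and the calls were lost in 14 and 8 of 20 alternatives. This share of the list is near that of all genes, of which 2.21% were called higher in TRAP RNA and 2.44% in input RNA. The medians of the list were -0.04 and -0.10. None of the 20 tested genes for ubiquitin and its activating and conjugating enzymes, nor of the 7 partners of cullin 1 and cullin 3 ligases, was called with banding in either fraction.

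Foxo4 was the FoxO gene called with banding, 1 of the 2 tested beside Foxo1 and Foxo3. It had 11.9 and 10.3 RPKM in band TRAP and 16.0 and 16.8 RPKM in sham TRAP, against 14.3 and 12.9 RPKM in band input and 19.2 and 19.6 RPKM in sham input. Banded hearts held less of it, by -0.53 in TRAP RNA (limma adjusted p = 0.0387) and -0.48 in input RNA (limma adjusted p = 0.0459). These calls were lost in 8 and 11 of 20 alternatives, with adjusted p values of up to 0.250 and 0.291. Over all genes 1.56% were called lower with banding in TRAP RNA and 1.65% in input RNA. Of the 15 upstream regulators of FoxO tested (insulin receptor, phosphoinositide 3-kinase, Akt and their like) and the 17 autophagy genes induced by FoxO, none was called with banding in either fraction.

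Among 20 other tested FoxO targets, TRAP RNA had 1 called higher and 2 lower after banding, and input RNA 0 higher and 2 lower. Over all genes 2.21% were called higher and 1.56% lower in TRAP RNA, and 2.44% and 1.65% in input RNA. Gadd45a, a stress-induced regulator of growth arrest, had 3.94 and 3.69 RPKM in band TRAP and 7.92 and 8.60 RPKM in sham TRAP, against 7.03 and 7.01 RPKM in band input and 10.3 and 10.6 RPKM in sham input. It fell after banding by 0.94 in TRAP RNA (limma adjusted p = 0.00317) and by 0.51 in input RNA (0.0218) on the log2 scale, and the calls were lost in 1 and 7 of 20 alternatives. Klf15, a glucocorticoid-induced repressor of cardiac growth, had 10.98 and 11.8 RPKM in band input against 16.4 and 17.0 RPKM in sham input (-0.51, limma adjusted p = 0.0334; lost in 8 of 20 alternatives). Cited2 was lower (-0.42, limma adjusted p = 0.0397) and Eif4ebp1, an inhibitor of translation initiation, higher (0.62, limma adjusted p = 0.0227) in band TRAP than in sham TRAP, with calls lost in 10 and 7 of 20 alternatives. The list median was -0.04 in TRAP RNA and -0.08 in input RNA.

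Of the 17 reported substrates of Trim63 and Fbxo32, 1 was called higher after banding in TRAP RNA, and 1 higher and 1 lower in input RNA. The shares of all genes were 2.21% higher in TRAP RNA, and 2.44% higher and 1.65% lower in input RNA. Actc1, cardiac actin, had 6365 and 6197 RPKM in band TRAP and 3910 and 3760 RPKM in sham TRAP, against 6131 and 6126 RPKM in band input and 4337 and 4243 RPKM in sham input (0.71 and 0.51; limma adjusted p = 0.00591 and 0.0171), and its calls were lost in 2 and 6 of 19 alternatives. Dusp1, a phosphatase of MAP kinases, was the one that fell in input RNA (-0.45, limma adjusted p = 0.0438), and its call was lost in 11 of 20.

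Around Mdm2, 12 partners and targets of p53 were tested. Over all genes 2.21% were called higher with banding in TRAP RNA and 2.44% in input RNA. Of the 12, 1 was called higher with banding in each fraction. It was Cdkn1a, the p21 inhibitor of cyclin-dependent kinases, with 29.7 and 24.7 RPKM in band TRAP and 15.7 and 15.8 RPKM in sham TRAP, against 44.5 and 34.0 RPKM in band input and 19.1 and 18.7 RPKM in sham input. It rose after banding by 0.75 in TRAP RNA (limma adjusted p = 0.0395) and 1.00 in input RNA (limma adjusted p = 0.0161) on the log2 scale, and the calls were lost in 5 and 6 of 20 alternatives.

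Although Mstn itself was near 0, 2 genes of its pathway were called higher after banding in each fraction. The filter on low values was passed by 12 of the 20 pathway genes. Among operated libraries these 2 reached 1 RPKM in banded hearts alone, so their count is not set against the 2.21% and 2.44% of all genes called higher in TRAP and input RNA. Inhba, the activin A subunit, which signals through the same receptors, had 1.28 and 1.29 RPKM in band TRAP and 0.375 and 0.183 RPKM in sham TRAP, against 2.30 and 2.84 RPKM in band input and 0.606 and 0.572 RPKM in sham input. Fstl3, a secreted binder of activin and myostatin, had 2.58 and 2.28 RPKM in band TRAP and 0.332 and 0.477 RPKM in sham TRAP, against 1.63 and 1.66 RPKM in band input and 0.429 and 0.449 RPKM in sham input. Inhba rose by 0.84 in TRAP RNA (limma adjusted p = 0.0141) and 1.16 in input RNA (0.00526), and its calls were lost in 3 of 19 alternatives each. Fstl3 rose by 1.29 in TRAP RNA (limma adjusted p = 0.0021) and 0.88 in input RNA (0.00808). The TRAP call of Fstl3 held in all 19 alternatives, and its input call was lost in 4. With no filter on low values both calls of Fstl3 held (limma adjusted p = 0.0136 and 0.0232), as did the input call of Inhba (0.0239) but not its TRAP call (0.0584). The sizes depended on the pseudocount and the unit. Over the alternatives Fstl3 ran from 0.46 to 2.56 in TRAP RNA and 0.29 to 1.89 in input RNA, and Inhba from 0.25 to 2.29 and 0.44 to 2.11. The list medians were 0.02 in TRAP RNA and -0.04 in input RNA.

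Between TRAP and input, the other 33 ligases had 4 called higher and 14 lower after banding, and 4 higher and 11 lower after sham surgery. Over all genes 16.6% were called higher and 26.0% lower after banding, and 15.1% and 24.5% after sham surgery. The share of ligases called higher lay near that of all genes in both. The list median was -0.33 after banding and -0.32 after sham surgery, against -0.10 and -0.09 over all genes. Stub1, the chaperone-linked ligase CHIP, was higher in TRAP by 0.97 after banding and 0.89 after sham surgery (limma adjusted p = 0.00056 and 0.000969), and Ubr4, an N-degron ligase with a very long transcript, was lower (-0.97 and -1.12; 0.000678 and 0.000611). With the length trend removed Ubr4 was at -0.29 after banding, with its call lost (limma adjusted p = 0.0954), and at -0.38 after sham surgery (0.0470). Of the 20 genes for ubiquitin and its enzymes 7 were higher and 6 lower after banding, and 7 higher and 5 lower after sham surgery. Ube2b, a conjugating enzyme induced in atrophy, had 227 and 169.5 RPKM in band TRAP against 99.4 and 88.8 RPKM in band input. Partners of the cullins went both ways. Rbx1, the RING subunit, was higher in TRAP (0.79 after banding, 0.66 after sham surgery) and Cul1, the scaffold, lower (-0.73 and -0.51), each called by limma. The sham call of Cul1 was lost in 5 of 20 alternatives, and the other calls of Rbx1 and Cul1 held in all 20.

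The 15 tested upstream regulators of FoxO had 0 called higher and 6 lower in TRAP after banding, and 0 higher and 7 lower after sham surgery, beside the shares of all genes just given. The 17 autophagy genes had 3 higher and 2 lower after banding and 3 each way after sham surgery, while the 17 Trim63 and Fbxo32 substrates had 1 higher and 8 lower in both. Ttn, the titin gene, was lowest among those, with 0.906 and 0.547 RPKM in band TRAP against 3.58 and 3.16 RPKM in band input, and turned to 0.03 after banding once the length trend was removed. In the Tie2 heart, Sgk1, a kinase that phosphorylates FoxO factors, had 71.2 RPKM in Tie2 TRAP against 4.68 RPKM in Tie2 input. The membrane-repair gene Trim72 had 17.0 RPKM in Tie2 TRAP against 274 RPKM in Tie2 input. Gabarapl1, an autophagy gene induced by FoxO3, had 166 RPKM in Tie2 TRAP against 33.4 RPKM in Tie2 input.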

How the data were processed

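RPKM values for 34306 genes in 12 libraries were deposited by the authors, with 1 transcript identifier and length per gene. The processing used CASAVA 1.8.2, TopHat 1.4, HTSeq 0.5.3 and the build NCBIM37, per the submitters' processing notes; annotation and settings were not given in the sources used here. Poly(A) RNA was primed with random hexamers in a preparation that does not mark strand, per the labels' protocols. RPKM times length fell on whole reads, within 0.02 reads, for 233410 of 233410 positive values, which gave totals of 26568988 to 94878619 reads per library. Column names were matched to groups by condition and number. Some of these names would match samples of either deposit.

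Tests were two-sided and run on log2(RPKM + 1) in limma 3.58.1 under R 4.3.3, with a variance trend and 1 mean per group over the 12 libraries, which leaves 4 residual degrees of freedom beside a prior of 3.02. The filter of at least 1 RPKM in 2 libraries left 11654 genes. Benjamini-Hochberg adjustment ran over all of them, with calls made under an adjusted p of 0.05. The fit was tested on simulated data. Comparisons of single libraries carry no p-value. There a log2 difference past 1 was counted, and RPKM ratios have 95% counting intervals from the recovered reads. A count of 0 allows up to 3 reads. Promoters are those of RefSeq, build GRCm38.p6, and 8 of the 10 genes matched one.

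The 10 genes and the gene lists were chosen with earlier results of these data known. All 10 genes were described. From each list at most 3 called genes per direction with the largest change were eligible for naming, or at most 2 in comparisons of single libraries past a log2 difference of 1 and at 1 RPKM in 1 library. The 3 genes nearest to each of the 10 by Pearson's r were also eligible. Alternatives changed the pseudocount, filter, scaling, length trend, unit, libraries in the fit, variance model and replicate block, and left out each replicate in turn. The numbers of the replicates do not pair the samples by any label, so the fit has no block.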

Additional observations from a re-analysis of the deposited data

Results flagged for a closer look

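For 4 genes TRAP minus input had opposite signs in the unoperated Tie2 heart and the unoperated CAG heart, each from 1 library per fraction, and the difference between the hearts was not tested. The median over all genes tested also had opposite signs, at 0.48 in the Tie2 heart and -0.26 in the CAG heart. The share of all genes with opposite signs was not counted. On the log2(RPKM + 1) scale, Foxo1 was at 0.98 in the Tie2 heart and -0.97 in the CAG heart, and both signs held under the 5 alternatives. Trim54 was at -2.54 in the Tie2 heart and 0.0395 in the CAG heart, where the sign turned under the alternatives (-0.15 to 0.05). Fbxo30 was at 0.0843 in the Tie2 heart and -0.66 in the CAG heart. Mdm2 was at 0.12 in the Tie2 heart and -0.35 in the CAG heart. For Fbxo30 and Mdm2 the Tie2 sign turned under the alternatives. Macrophage and leukocyte markers were at a median of 949% of input in Tie2 TRAP, and their part in these values was not tested.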

How the results depend on the processing

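The calls of Spop, Foxo1, Foxo3 and Trim63 as lower in TRAP than in input held in all alternatives run, after banding and after sham surgery. Over all alternatives other than leaving out a replicate, 519 of the tests of the 9 genes kept their direction and side of the threshold, 4 gained a call, 1 lost it and 6 turned sign. Leaving out 1 replicate kept 323, with 12 gained, 4 lost and 21 turned. No value of the 9 genes that turned sign was called on either side. The cause of the changes given here was not tested. The stricter filter left fewer genes to test, and the leave-out fits had fewer libraries. Those fits also re-estimated the spread that all comparisons share. Comparisons that do not use the library left out gained or lost calls too.

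The values that turned sign were, in TRAP against input after sham surgery, Mdm2 at 0.0316 with quantile normalization and 0.0768 with the length trend removed, and Cand1 at 0.0565 with the length trend removed; after banding, Trim55 at 0.0475 with quantile normalization and Ttn at 0.0266 with the length trend removed. In band against sham, Trim63 in input RNA was at -0.00055 after rescaling and -0.0023 with the length trend removed, and Fbxo30 in TRAP RNA at -0.0147 by limma voom. Leaving out 1 replicate gave band against sham ranges of -0.0844 to 0.0871 for Trim63 and -0.112 to 0.0342 for Trim55 in input RNA, and of -0.14 to 0.45 for Trim55, -0.29 to 0.44 for Fbxo30 and -0.0830 to 0.0138 for Foxo1 in TRAP RNA. TRAP against input after banding ran from -0.168 to 0.0976 for Trim54 and -0.33 to 0.26 for Trim55. The interaction of banding with fraction ran from -0.0515 to 0.12 for Trim63, -0.0603 to 0.205 for Trim54, -0.0991 to 0.484 for Trim55, -0.258 to 0.0424 for Fbxo32, -0.39 to 0.33 for Fbxo30 and -0.0160 to 0.157 for Spop.

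Counts over all genes moved more. Called in band against sham in TRAP RNA were 207 genes with no filter against 439, and in TRAP against input after banding 3284 with the filter of 5 RPKM against 4964. For the interaction 2 genes were called with a pseudocount of 0.1 RPKM and 2 with no filter. Leaving out 1 replicate gave 33 to 1971 calls in band against sham TRAP, 26 to 1511 in band against sham input, 2779 to 6269 in TRAP against input after banding, 1917 to 6388 after sham surgery, and 0 to 197 for the interaction, where 197 came without band TRAP library 1. Past a log2 difference of 1, Tie2 TRAP against Tie2 input counted 3097 genes with a pseudocount of 5 RPKM against 5202, and Tie2 TRAP against CAG TRAP 3723 against 6494. CAG TRAP against CAG input counted 2433 with a pseudocount of 0.1 RPKM, 292 with 5 RPKM and 561 with the length trend removed, against 989.

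With the replicate number as a block, 259 genes were called in band against sham TRAP, 273 in band against sham input, 4548 in TRAP against input after banding, 4243 after sham surgery and 0 for the interaction. The block moved no call of the 9 genes. Deviations of libraries with the same number correlated between -0.43 and 0.11 over the pairs of groups. With 2 libraries per group, spread of single libraries could hide a pairing, so this cannot decide whether the numbers pair the samples. A block with the sham TRAP numbers exchanged, chosen after seeing the data, gave 369, 405, 5083, 4728 and 0 calls in that order. Depth limits Mstn, with 0 to 7 reads, Trim55 in Tie2 TRAP, with 43 reads, and the p-values, which rest on 2 libraries per group.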
